A study of Saccharomyces cerevisiae with 28 samples.

Results

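The cells that secreted the most α-amylase were compared between gene activation and gene repression through the guide RNAs they carried. The comparison took the 8 high fluorescence libraries of the main activation screens (rounds 2, 3, 4 and 5, with 2 replicates each) against the 4 high fluorescence libraries of the main repression screens (rounds 1 and 2, with 2 replicates each). They were grouped by their labels, while the comparison itself was chosen with earlier results of these data known. They are 12 of the 28 libraries of the series and 12 of the 24 of the main screens. The other 12 main libraries, the low fluorescence fractions of the same sorts, served as background. All cells were of Ethanol Red, a diploid industrial yeast strain that carried a codon-optimised α-amylase gene of Aspergillus niger at the HO locus and was grown under geneticin. In the activation cells the guide directed dCas9-VPR, and in the repression cells dCas9-Mxi1. Both fusions were expressed from the constitutive TEF1 promoter, and in all libraries the guide was induced by anhydrotetracycline added as the droplets were made. A single guide collection, aimed at the promoters of genes and of 2 kinds of non-coding RNA, SUTs, which are stable transcripts without an annotation, and CUTs, which are cryptic and soon degraded, was used in both screens. The activation and repression plasmid pools were cloned and transformed separately, so every difference between the screens is also a difference between pools.

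dCas9 is a Cas9 without cutting activity that binds the DNA its guide matches. Fused to VPR, a set of transcriptional activators, it raises transcription from a promoter it binds, and fused to Mxi1, a mammalian repressor domain, it lowers it. A secreted protein such as amylase enters the endoplasmic reticulum, is folded and glycosylated there, and travels in vesicles through the Golgi to the cell surface. In the screens cells were enclosed in droplets, mostly no more than 1 to a droplet, with a substrate that fluoresces when amylase cuts it, and the brightest few percent of droplets were sorted as the high fraction. Sorted cells grew overnight on plates before the guides were amplified. A guide's share of reads therefore joins the number of cells sorted, their growth on the plate and the amplification, which cannot be told apart in these counts.

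11 different guides had the largest share of at least 1 of the 12 high libraries, and they are shown first because the comparison turns on which guides lead. Of the others shown, SUT140, RPS15 and YFR052C-A recurred among the leading guides of 4 libraries of a screen, SUT643 had the largest log2 fold change of the called guides that have a paired feature, and SUT386 was the single guide called lower in the high over low comparison, a call lost with the sort as a block. Sequences are written 5′ to 3′, and capitals mark a G as first base and GG as last bases. The name is the feature paired with the guide, and "unpaired" is followed by the first bases of a guide without a paired feature.
BNA7: atggtccaaacctaaggtta
SNR63: Ggaggatataacacaaacag
unpaired GCCGTT: GccgttatcgccatgtttGG
unpaired CTGATA: ctgatatactctaactgtgt
unpaired AGATTT: agatttaggcttcttatctg
TRX3: Ggcttattatgatcaaatag
unpaired GGAGGA: Ggaggaggagaattcttgcg
SWI4: Gtgacgcgtcacttcaaacg
CUT657: Ggcgttgacactgccttctg
ALB1: agccaagaaggcgttaagGG
unpaired GCATTG: Gcattgatgatgacttatgc
SUT140: Ggacgagaataactcgcttg
RPS15: GtcccggaaaccgtgttgGG
YFR052C-A: Ggtaccttaggaccgttgag
SUT643: aggaccctatttcttcacga
SUT386: Gtttatatcttccaacaacg

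Depth was 205969 to 2382465 reads in the activation high libraries and 1842307 to 3346567 in the repression high libraries, over 40890 guides. In the low libraries it was 50433 to 3359719 reads. Of the guides detected in a library, 70.8 to 96.3% had fewer than 10 reads in the activation high libraries, against 19.3 to 67.5% in the repression high libraries. 2278 guides have a paired feature, which comes from lists of the activation screens, so guides that led under activation are more likely to carry a name. The labels do not say that the replicates came from separate cultures, so p-values measure only the spread between these libraries. Intervals of single shares cover counting error only, since amplified reads are not independent molecules.

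Some high libraries held the leading guides of another library at a small and nearly fixed ratio. For each of 132 ordered pairs of high libraries, the 20 leading guides of the first were looked up in the second. In 19 pairs at least 18 of the 20 were read there, at a median ratio under 5% and with quartiles within 2-fold of each other. 13 of the 19 pairs lay within activation, 1 was led by an activation library and read in a repression library, and 5 were led by a repression library and read in an activation library. The leading guides of activation round 4 replicate 1 were read in activation round 2 replicate 1 at a median of 2.52% of their share (quartiles 2.21 and 2.65%), and those of activation round 5 replicate 1 in repression round 2 replicate 2 at 0.124%. The leading guides of repression round 2 replicate 2 were read in activation round 3 replicate 2 at 0.813%. None of 144 pairs of a high and a low library met the same rule. Whether these reads came from sorted cells was not tested. As a check chosen after seeing the data, the measures of diversity were recomputed with every share under 3% of the guide's largest share set to 0.

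**Figure D1:**
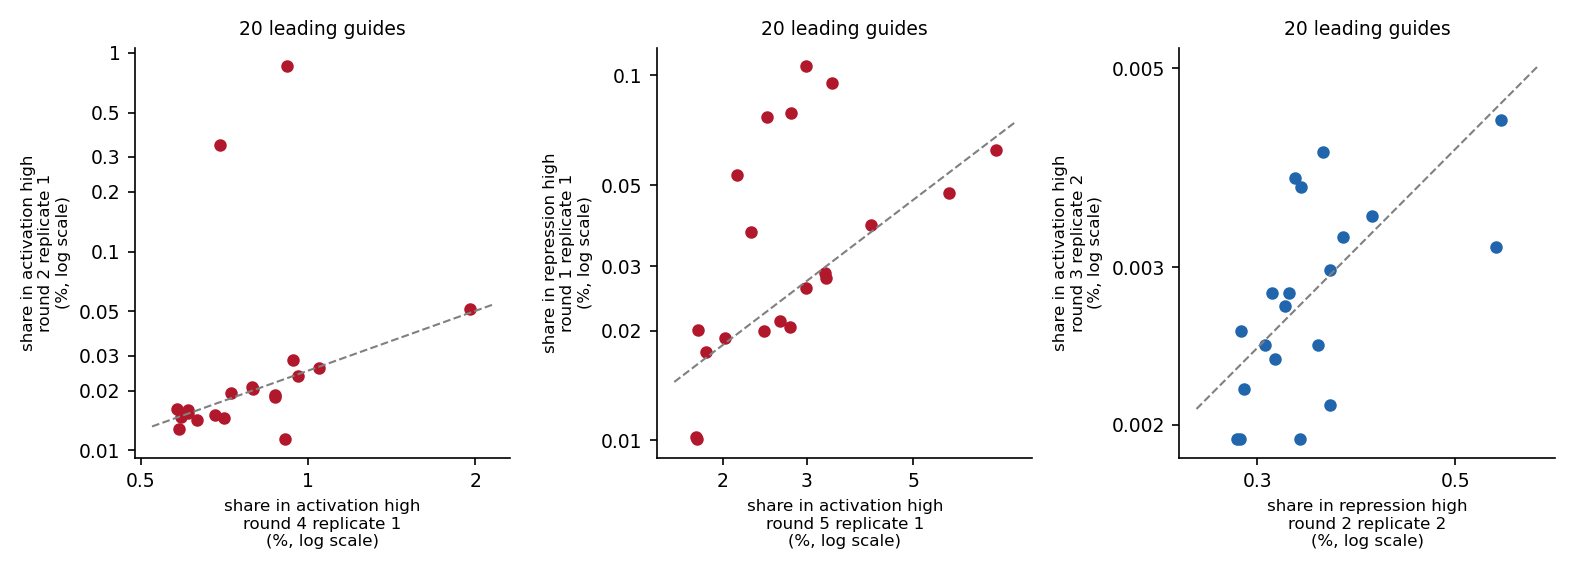
Share of the 20 leading guides of a high library (horizontal axis, % of reads, log scale) against their share in another high library (vertical axis, % of reads, log scale), 1 point for each guide read in both. The broken line is the median ratio, 2.52% in the left panel, 0.912% in the middle panel and 0.813% in the right panel; in the middle panel, activation round 5 replicate 1 against repression round 1 replicate 1, the quartiles (0.812 and 1.84%) were not within 2-fold.

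The high secreting cells of the activation screens carried far fewer guides than those of the repression screens. The effective number of guides, the number of equally common guides that would give the same Shannon entropy, was 237 and 288 in the activation round 2 libraries, 96.5 and 415 in round 3, 385 and 79.3 in round 4 and 53.9 and 740 in round 5. In the repression libraries it was 4438 and 4663 in round 1 and 4432 and 1222 in round 2. No activation library reached the lowest repression library. The repression libraries were 15.7-fold more diverse, a log2 difference of -3.98 for activation minus repression (exact permutation test over 8 and 4 libraries, two-sided, p = 0.00404, the smallest that 8 against 4 libraries allow). Adjusted over the 6 measures compared this way, the exact test gave p = 0.00808. With the replicates of a round averaged, 4 rounds against 2 gave an exact permutation p of 0.133, the smallest possible with rounds as the unit. Replicates of a round lay close together in activation round 2 and repression round 1, and far apart in activation rounds 3, 4 and 5 and repression round 2. Without repression round 2 replicate 2 the log2 difference was -4.45, and with the small shares set to 0 it was -4.04.

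The number of guides that together held 50% of the reads told the same of the heads of the libraries. It was 58, 54, 26, 107, 108, 8, 15 and 212 in the activation libraries, in order of round and replicate, against 1181, 1215, 1199 and 320 in the repression libraries. The repression libraries needed 18.3-fold more guides (exact permutation test, two-sided, p = 0.00404). The 10 leading guides held 23.3 ± 15.7% of the reads in the activation libraries (SD, n = 8) and 2.47 ± 1.03% in the repression libraries (SD, n = 4; exact permutation test, two-sided, p = 0.00404). The lowest activation share, 5.19% in round 5 replicate 2, was above the highest repression share, 4.00% in round 2 replicate 2. The 100 leading guides held from 30.8 to 99.6% of the reads under activation and from 10.1 to 24.1% under repression.

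**Figure D2:**
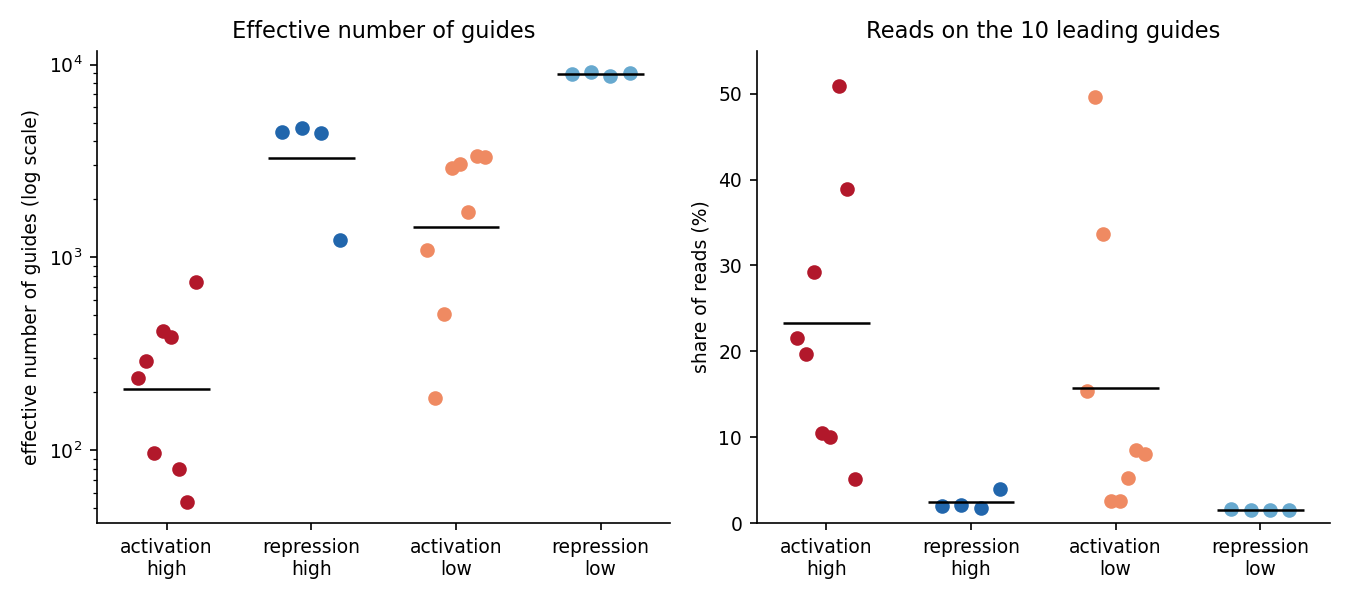
Effective number of guides (left panel, vertical log scale) and share of reads on the 10 most abundant guides (right panel, %) in each library of the activation high, repression high, activation low and repression low fractions; a point is a library, and the line is the geometric mean in the left panel and the mean in the right. The 8 activation high libraries lie between 53.9 and 740 effective guides, below all 4 repression high libraries, and the 4 repression low libraries lie above all others.

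**Figure D3:**
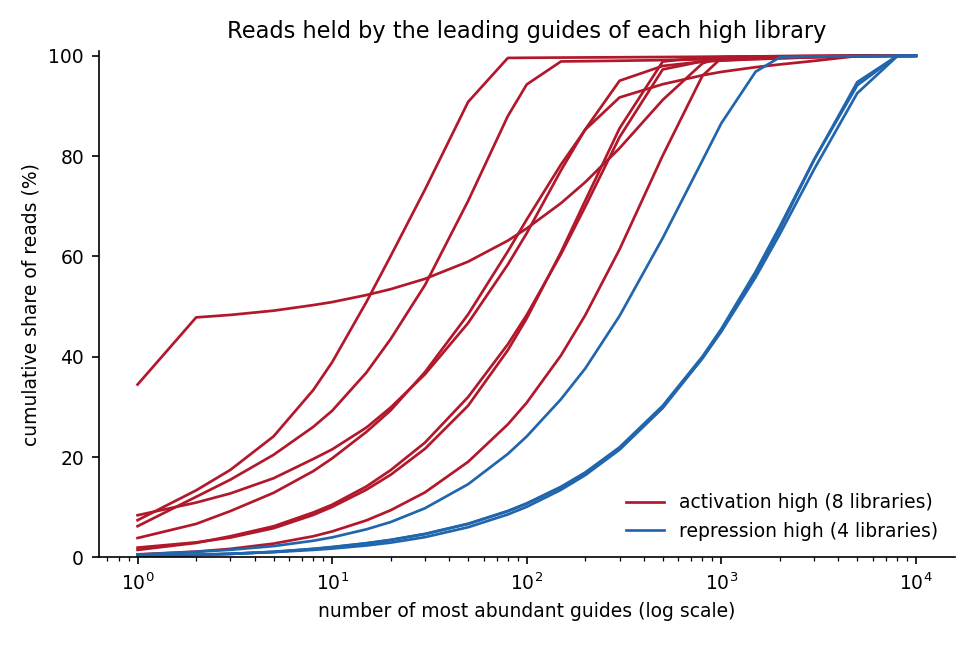
Cumulative share of reads (vertical axis, %) held by the most abundant guides of each high library (horizontal axis, number of guides, log scale), with a line for each of the 8 activation and 4 repression libraries. In the activation libraries the 100 leading guides hold 30.8% of the reads or more, and the line that starts at 34.5% is round 4 replicate 2, where a single guide holds that share.

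Since depth differed, the guides present were also counted at a common depth of 50433 reads, the smallest of the main libraries. There the activation libraries held 1115 ± 608 guides (SD, n = 8) and the repression libraries 5472 ± 2282 (SD, n = 4; exact permutation test, two-sided, p = 0.00808). Here the groups overlapped: activation round 2 replicate 2 had 2363 guides and repression round 2 replicate 2 had 2067. At 10 reads or more, the activation high libraries held between 185 and 1095 guides each and the repression high libraries between 2068 and 7972. Over all libraries of a screen, 3511 guides reached 10 reads under activation and 13241 under repression, of which 2916 did so under both. Only 9 guides did so in every activation library, against 870 in every repression library, and 8 did so in all 12.

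The low fractions differed in the same direction. Their effective number was 1090, 186, 507, 2899, 3045, 1707, 3346 and 3310 in the activation low libraries, against 8877, 9119, 8718 and 9049 in the repression low libraries, a 6.27-fold difference (exact permutation test, two-sided, p = 0.00404). In the low libraries of a screen 14057 guides had at least 10 reads in sum under activation and 21583 under repression. Of these, 22.3% reached 10 reads in a high library under activation and 60.2% under repression. To set each high library against its own low library, the log2 ratio of the effective numbers was taken within each sort. It was -2.20, 0.63, -2.39, -2.80, -2.98, -4.43, -5.96 and -2.16 in the activation sorts and -1.0, -0.97, -0.98 and -2.89 in the repression sorts. The high fraction was narrower than the low in 7 of 8 activation sorts and in 4 of 4 repression sorts. The difference between the screens, -1.33, was not larger than the spread between sorts (exact permutation test, two-sided, p = 0.255). It was -1.82 without activation round 2 replicate 2, the sort whose low library was the narrower (exact permutation test, two-sided, p = 0.0303). That low library was the shallowest, with 50433 reads, 27.7% of them on guides with fewer than 10 reads. The effective numbers were not taken at equal depth. A narrower sort and a narrower activation pool cannot be told apart from these values.

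No difference in GC content was detected between the screens, while the leading guides differed in how many end in GG. The read-weighted GC content of the guides was 41.7 ± 1.66% under activation (SD, n = 8) and 41.4 ± 0.529% under repression (SD, n = 4; exact permutation test, two-sided, p = 0.735). Guides with a G as first base are 20.3% of the collection but held from 43.3 to 62.0% of the reads under activation and from 46.1 to 50.4% under repression. Guides that end in GG are 7.99% of the collection. They held from 8.37 to 28.3% of the reads under activation (median 18.2%) and from 18.1 to 20.6% under repression (median 18.3%). They held 15 to 24 of the 100 leading places in the activation high libraries and 30 to 43 in the repression high libraries, while in the low libraries they held 14 to 36 and 37 to 46. Guides with TTTT, a run at which RNA polymerase III can stop, are 11.3% of the collection and held from 5.93 to 16.0% of the reads under activation and from 12.4 to 13.1% under repression.

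Under activation most high libraries had a leader of their own, often a guide with several percent of all reads. The guide paired with BNA7, which encodes the kynurenine formamidase of NAD synthesis from tryptophan (chromosome IV, 1323454 to 1324239, R64), led round 2 replicate 1 with 8.41% (95% Wilson interval 8.36 to 8.47%). The guide paired with SNR63, a small nucleolar RNA that directs methylation of ribosomal RNA (chromosome IV, 323217 to 323471), led round 2 replicate 2 with 3.86% and round 4 replicate 2 with 34.5%. The guide paired with TRX3, the mitochondrial thioredoxin (chromosome III, 259578 to 259961), led round 5 replicate 1 with 7.43%. The other 4 activation libraries were led by unpaired guides, GCCGTT with 6.22% in round 3 replicate 1, CTGATA with 1.50% in round 3 replicate 2, AGATTT with 1.96% in round 4 replicate 1 and GGAGGA with 0.609% in round 5 replicate 2. No repression leader reached the lowest of these. SWI4, the DNA-binding subunit of the SBF factor of G1 transcription (chromosome V, 382595 to 385876), led repression round 1 replicate 1 with 0.258%. CUT657 led round 1 replicate 2 with 0.271%, ALB1, whose protein joins the precursor of the large ribosomal subunit, led round 2 replicate 1 with 0.291%, and the unpaired GCATTG led round 2 replicate 2 with 0.563%.

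The leaders were seldom the same from library to library under activation. Among the 100 most abundant guides, replicates of a round shared 0 to 4 under activation and 11 to 37 under repression. Libraries of different rounds shared 0 to 9 under activation (median 2.5 of 24 pairs) and 12 to 34 under repression (median 22 of 4 pairs). An activation and a repression high library shared 0 to 14 (median 5.5 of 32 pairs), so the median pair across the screens shared more than the median pair of activation libraries of different rounds. The 100 leading guides of the activation libraries made a union of 733 guides, 92.8% of them in a single library. Those of the repression libraries made a union of 296, 75.7% of them in a single library. The unions shared 85 guides, 11.6% of the activation union and 28.7% of the repression union. In the low fractions the leading guides recurred more, with 8 to 31 shared by activation libraries of different rounds and 69 to 77 by repression libraries of different rounds.

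**Figure D4:**
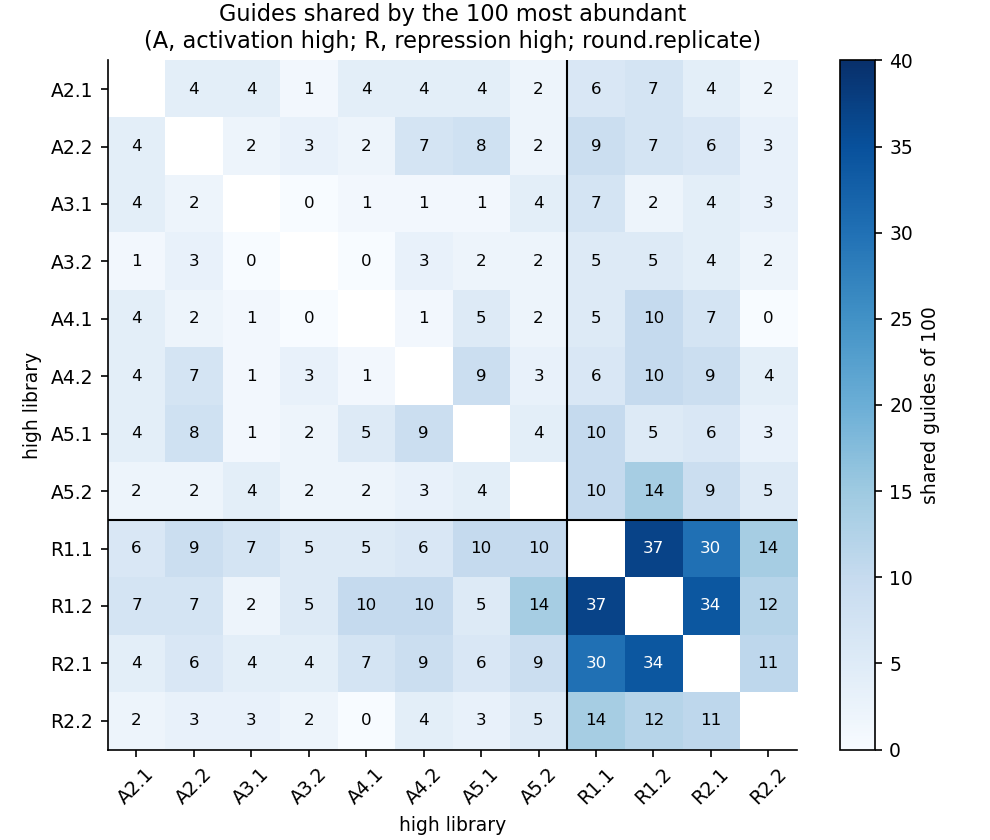
Number of guides shared by the 100 most abundant of each pair of high libraries (rows and columns, A for activation and R for repression, then round and replicate; the colour scale counts shared guides). Pairs of activation libraries share 0 to 9, an activation and a repression library 0 to 14, and pairs of repression libraries 11 to 37.

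4 guides were among the 100 leading in 4 activation high libraries, the most that any guide reached, and none of them in a repression library. For BNA7 and SNR63, 1 of the 4 was round 5 replicate 1. There the 80 most abundant guides held 99.57% of the reads and the 100 most abundant 99.60%, so its last leading places were held at very small shares. BNA7 held 8.41, 1.84, 0.0727, 0.00465, 0.111, 13.4, 0.0106 and 0.00443% of the reads in the activation libraries, against 0.00293, 0.00499, 0.0174 and 0.00193% in the repression libraries. SNR63 held 0.410, 3.86, 0.141, 0.0347, 0.282, 34.5, 0.0373 and 0.0106% under activation, against 0.00765, 0.00345, 0.0392 and 0.00773% under repression. Both were high in a few activation libraries and within the repression range in others, so the groups overlapped. They were also abundant in the activation low libraries, where BNA7 held 0.358 to 19.3% and SNR63 0.174 to 28.8%, against at most 0.0602% and 0.0261% in the repression low libraries. Within sorts, each had a larger share in the high than in the low library in 1 of 8 activation sorts.

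SUT140 held 2.52, 2.56, 0.661, 0.00105, 0.000914, 0.0888, 0.000420 and 0.490% under activation, against 0.00122, 0.00188, 0.000326 and 0.000335% under repression. In the low libraries it held 0.0448 to 0.520% under activation and 0.000187 to 0.00244% under repression. Its share was larger in the high than in the low library in 5 of 8 activation sorts, a count favoured by its choice from the activation high libraries. RPS15, a protein of the small ribosomal subunit (chromosome XV, 253149 to 253577), held 0.384, 0.0214, 0.00102, 0.319, 0.00110, 0.206, 0.777 and 0.134% under activation, against 0.0621, 0.0477, 0.0411 and 0.124% under repression. RPS15 thus differed from the other 3 in being common under repression as well, and 3 of its activation libraries lay below all repression libraries. In the edgeR fit across guides described below, none of the 4 passed the threshold, with adjusted p from 0.0600 for SUT140 to 0.0905 for RPS15.

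Under repression the guides that recurred were spread evenly, with none above 0.563% in any repression library. 30 guides were among the 100 leading in at least 3 of the 4 repression libraries, of which 26 had a paired feature, 8 of them a SUT or CUT. 23 of the 30 start with G and 19 end in GG. Together they held 3.47 to 4.07% of the reads in the repression high libraries and 1.23 to 4.67% in the activation high libraries. These guides were chosen by their repression high shares, so the following levels are a description and no comparison. The median over these guides of their median share was 40.7 CPM, reads scaled to the same library total, in the activation high libraries, against 1099 CPM in the repression high libraries. It was 629 CPM in the activation low and 945 CPM in the repression low libraries. 19 of the 30 were also among the 100 leading of an activation library.

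2 guides were in the leading 100 of all 4 repression libraries. The guide paired with YFR052C-A, a dubious reading frame, held 0.000919, 0.00971, 0.00159, 0.385, 0.000183, 0.131, 0.000546 and 0.000571% under activation, against 0.0973, 0.0872, 0.102 and 0.232% under repression. The unpaired GCATTG held 0.0000554 to 0.122% under activation (median 0.00126%), against 0.105 to 0.563% under repression, so that the groups overlapped at a single activation library. GCATTG had a larger share in the high than in the low library in 4 of 4 repression sorts and in 2 of 8 activation sorts. YFR052C-A did so in 3 of 4 and in 2 of 8. Both guides were chosen by their repression high shares, which favours a larger high share in the repression sorts. These counts are therefore a description and no comparison of the screens.

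3 guides were in the leading 100 of 3 activation and 3 repression libraries. SWI4 held 0.0258, 0.0160, 1.61, 0.00289, 1.05, 0.00133, 0.00113 and 0.307% under activation, against 0.258, 0.206, 0.275 and 0.0113% under repression. VAB2, a subunit of the endosomal BLOC-1 complex (chromosome V, 145907 to 146755), ranged from 0.000462 to 1.12% under activation and from 0.0587 to 0.205% under repression. YNR071C, a putative aldose epimerase (chromosome XIV, 770440 to 771468), ranged from 0.00205 to 0.680% under activation and from 0.0940 to 0.209% under repression. In each the activation libraries lay on both sides of the repression libraries.

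3 guides paired with genes of protein transport or autophagy were each above all repression libraries in 1 activation library. They were picked by function from guides already named for large shares in the high libraries. SEC61, the channel through which proteins enter the endoplasmic reticulum (chromosome XII, 875736 to 877178), held 0.782% in activation round 2 replicate 2 and at most 0.00102% in the other 7 activation libraries. Under repression it held 0.0769, 0.112, 0.0918 and 0.000186%. PEP12, the endosomal t-SNARE (chromosome XV, 400348 to 401214), held 0.896% in activation round 2 replicate 2 and 0.000274 to 0.172% in the others, against 0.0679 to 0.209% under repression. ATG39, a receptor for autophagy of the nuclear envelope (chromosome XII, 757637 to 758833), held 5.86% in activation round 3 replicate 1 and at most 0.0554% in the others, against 0.00239 to 0.155% under repression. Each of these activation values rests on a single library. Leading in 1 library was common: of the 733 guides among the 100 leading of an activation library, 92.8% were so in a single library. The 3 guides thus show nothing particular to transport or autophagy.

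**Figure D5:**
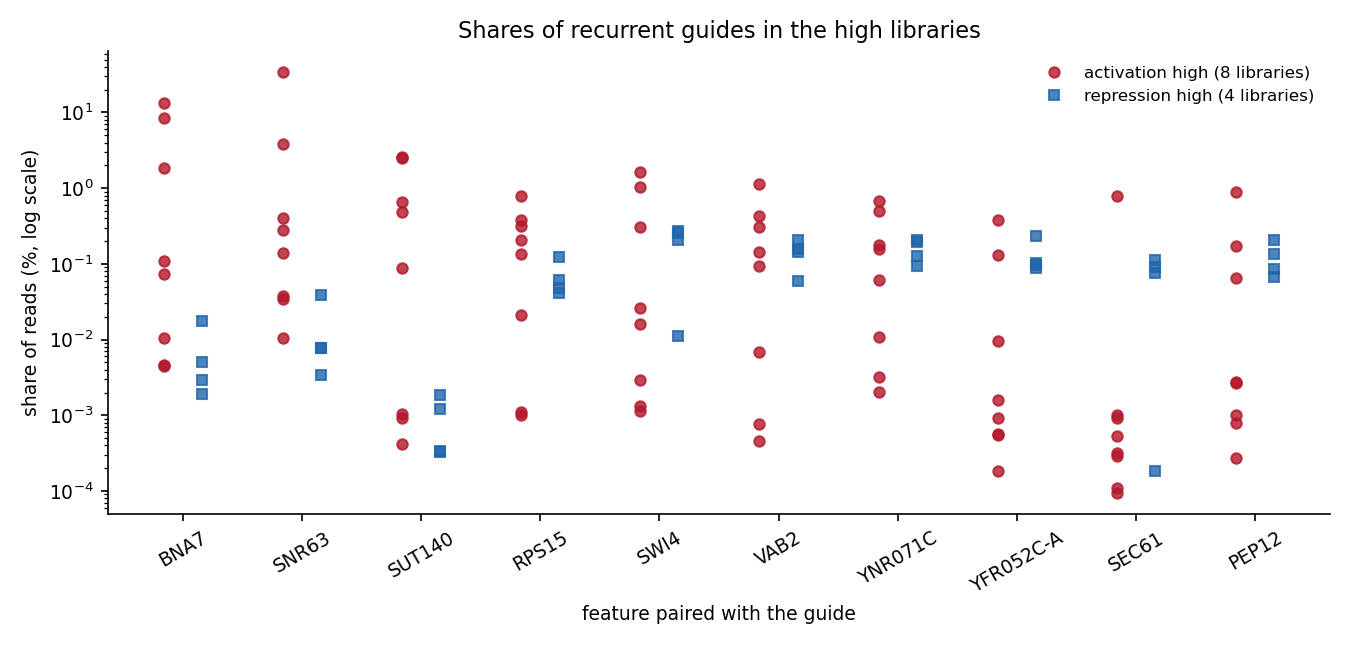
Share of reads (vertical axis, %, log scale) of 10 recurrent guides, named by their paired feature, in the 8 activation high libraries (circles) and the 4 repression high libraries (squares). The circles of a guide span up to several orders of magnitude, from 0.00443 to 13.4% for BNA7. The squares lie close together for some guides, from 0.0940 to 0.209% for YNR071C, but not for others, such as SEC61 and SWI4.

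A direct comparison of single guides, activation over repression in the high fractions, was made with edgeR on 2688 guides. At a log2 fold change beyond 3 and an adjusted p under 0.05 it called 40 guides higher (1.49% of those tested) and 0 lower (0.0% of those tested). These calls are relative to RLE size factors, which rest on 463 guides read in every high library and put the median log2 fold change of all tested guides at 4.18, with 68.9% of guides above 0. With TMM factors the median was 2.32 and edgeR called 35 higher and 8 lower, and with the library size alone the median was -1.34 and it called 10 higher and 888 lower. The quasi-likelihood test of edgeR called 0 in either direction, with 735 guides at an unadjusted p under 0.05, and DESeq2 called 145 higher and 130 lower. The number and direction of the calls thus changed with the size factors and with the test, and why was not tested.

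The 40 guides called higher rested on single libraries. Of their summed activation CPM, a median of 99.4% lay in a single library, and in 37 of the 40 it was over 95%. The largest share was in round 5 replicate 1 for 26 guides, in round 4 replicate 1 for 9 and in round 3 replicate 1 for 5. 39 of the 40 had no read in at least 1 activation library, and at most 4 activation libraries lay above all repression libraries. The edgeR test reports no standard error. The SE given here is the log2 fold change divided by the square root of its likelihood ratio statistic. For guides with few or no reads in most libraries it is only a rough measure. SUT643 held 0.0238, 0, 0, 0, 0.960, 0.000277, 0.000672 and 0.00148% under activation, against 0, 0.000659, 0 and 0% under repression (edgeR log2 fold change 15.88 ± 3.74 SE, adjusted p = 0.00311). It was the rank 3 guide of round 4 replicate 1. The 20 leading guides of that library were read in round 2 replicate 1 at a median of 2.52% of their share. In round 5 replicates 1 and 2 these medians were 0.0764 and 0.145%. The SUT643 shares in these 3 libraries lay near those ratios, and whether such reads came from sorted cells was not tested. ATG33, which encodes a mitochondrial protein of mitophagy (chromosome XII, 840321 to 840914), held 4.08% in round 5 replicate 1 and at most 0.0131% in the others, against 0.0389, 0.0000627, 0 and 0.00476% under repression (edgeR log2 fold change 12.53 ± 3.35 SE, adjusted p = 0.0193). ATG33 was the rank 3 guide of round 5 replicate 1. Its shares in repression round 1 replicate 1 and round 2 replicate 2 lay near the small ratios given above for the leading guides of that library. The source of these repression reads was not tested either. The other paired features among the 40 were THR4, CUT824, PUS5, CUT571, TOM22, LPX1, CHD1, YGR174W-A, SUT750, SNQ2, ALP1 and APM3, singled out only as the full list of named calls. Without activation round 5 replicate 1 edgeR called 7 guides higher.

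The tested guides had passed a filter that needs reads in about as many libraries as the smaller group holds. These libraries could be of either screen or a mixture of both. At 10 reads or more, 240 guides were present in 4 or more activation high libraries, against 870 in all 4 repression high libraries. More guides could thus qualify through the repression libraries alone than through the activation libraries alone. The following counts of guides whose groups did not overlap are therefore a description of this filtered set. In CPM, no tested guide (0.0%) had all 8 activation high libraries above all 4 repression high libraries, and 381 (14.2%) had all 8 below all 4. In the low fractions 10 of 12789 guides lay wholly above and 2244 (17.5%) wholly below. 43 of the 381 also lay wholly below in the low fractions. In the edgeR comparison of the low fractions, 78 of 12789 guides (0.61%) were called higher under activation and 1674 (13.1%) lower.

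To set aside the abundance of a guide in each pool, the change from low to high was compared between the screens over all 24 libraries with an interaction term in edgeR. It called 581 of 14666 guides higher under activation (3.96%) and 1 lower (0.00682%). These calls also rested on single libraries: a median of 98.9% of the activation high CPM of a called guide lay in 1 library, and in 476 of the 581 it was over 90%. 127 of the 581 had no read in any repression high library, and 225 had fewer than 10 reads over the activation low libraries. 124 of them were among the 100 leading of an activation high library, 118 had a paired feature, and 16 were also among the 40 above. With the library size alone the edgeR interaction called 0 higher, and without repression round 1 replicate 1 or round 2 replicate 2 it called 0 higher as well. With TMM factors it called 189 higher and 1 lower, while DESeq2 called 65 higher and 176 lower. With each sort as a block, which pairs the high and low fractions labelled with the same round and replicate, edgeR called 193 higher and 0 lower.

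The 6 guides with the smallest p in that comparison were all unpaired (edgeR adjusted p from 0.00444 to 0.00462). The unpaired GTGTTA had 266 reads in activation high round 2 replicate 2, 1 read in round 3 replicate 1 and 0 in the other 6, against 0 in all repression high libraries. In the low libraries it had 0 to 1 reads under activation and 113, 27, 31 and 56 under repression. ATCTGC likewise had 80 reads in 1 activation high library and at most 1 in the others, against 0 in all repression high libraries. Both were few reads in a single activation library set against a guide that was read in all repression low libraries and in no repression high library. SUT386, the guide called lower, had 0 reads in all 8 activation high libraries, against 77, 416, 3 and 705 in the repression high libraries. It had 203, 2, 279, 787, 33, 21, 2 and 1 reads in the activation low libraries and 214, 250, 125 and 195 in the repression low libraries (edgeR adjusted p = 0.0259 for the difference). It was no longer called with the sort as a block (edgeR adjusted p = 0.162), nor without any single repression sort (0.0512 to 0.185).

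The lists of secretory and growth genes were described by their share of reads, and 1 guide often made most of a list's reads. No list separated the groups: in all 10 the activation and repression high libraries overlapped. The 49 guides of cytosolic ribosomal proteins held 0.704 to 4.82% under activation (median 1.07%) and 0.508 to 0.920% under repression (median 0.791%). 28 of them were tested, with a median edgeR log2 fold change of 6.18 against 4.42 over the 1113 tested guides with a paired feature, and 0 were called in either direction. The leading member was RPL40B, a ubiquitin and ribosomal protein fusion, with 2.48% in round 5 replicate 1. The 16 autophagy guides held 0.0388 to 6.69% under activation, where ATG39 made 5.86%, against 0.211 to 0.355% under repression. 10 were tested, with a median of 5.84, and 1, ATG33, was called higher, beside 14 of the 1113 tested guides with a paired feature and 1.49% of all tested guides.

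Lists of the route out of the cell spanned a wider range over the 8 activation than over the 4 repression libraries, and the groups overlapped in each. The 5 guides of the signal recognition particle and Sec translocon had a median of 0.000690% and a highest value of 0.785% under activation, and 0.000335 to 0.152% under repression. The 8 guides of exocyst and exomer reached 1.20% in activation round 3 replicate 1, of which CHS5, an exomer subunit, made 1.19%, against 0.0173 to 0.206% under repression. The 15 guides of the COPII coat and TRAPP tethers held 0.000420 to 0.488% under activation and 0.140 to 0.458% under repression, and the 14 of endosome and vacuolar sorting 0.00155 to 1.40% and 0.260 to 0.397%. The 6 guides of endoplasmic reticulum folding held 0.000333 to 0.593% under activation, led by MPD1, a protein disulfide isomerase relative, against 0.0128 to 0.108% under repression. Of the 2, 4, 8, 6 and 2 tested guides of these lists 0 were called in the high comparison, which says nothing of the lists at the 1.49% called over all guides. In the interaction, the guides called higher were 2 of 15 tested in COPII and TRAPP, 2 of 8 in exocyst and exomer, 1 of 11 in endosome and vacuolar sorting, 1 of 16 in autophagy and 3 of 46 in cytosolic ribosomal proteins. Over all tested guides with a paired feature 118 of 2176 were called higher, so that these small counts say little about the lists.

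Lists of energy and growth overlapped between the screens as well. The 17 guides of mitochondrial ribosomal proteins held 0.000923 to 1.00% under activation and 0.160 to 0.501% under repression, and 9 tested guides had a median edgeR log2 fold change of 1.87. The 17 guides of the cell division cycle held 0.00159 to 0.296% under activation (median 0.00896%) and 0.0983 to 0.245% under repression (median 0.195%). The 4 glycolytic guides held 0 to 0.179% under activation, where ENO2, an enolase, made 0.179% in round 4 replicate 1, against 0.00140 to 0.0306% under repression. CHS5, MPD1 and ENO2 were named after their values were seen, as the leading member of their list.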

How the data were processed

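Guide amplicons of the sorted fractions were sequenced. Je was used to split the reads by barcode and BWA to align them to the guides, and the authors deposited the resulting read counts per guide without normalization. Tool versions are not given in the sources used here. Groups came from the labels. Shares, effective numbers and analytic thinning to 50433 reads were computed with numpy 2.4.6 and compared with exact permutation tests in scipy 1.17.1. Count tests used edgeR 4.0.16 under R 4.3.3 (filterByExpr, RLE factors, glmFit and glmLRT, prior count 0.125, Benjamini-Hochberg adjustment over all guides tested), checked on simulated counts, and with DESeq2 1.42.0 as an alternative. Guides named were the 3 leading of each high library, those among the 100 leading of at least 4 activation or 3 repression libraries, the 10 leading in both screens and the 6 foremost calls in each direction. No called guide of the high comparison also had groups that did not overlap. The libraries compared and the gene lists were chosen with earlier results of these data known. Features were paired through supplementary guide lists, 1462 of 1987 matched by locus tag or else by gene symbol to the R64 gene table. No guide position was used. A sorting run splits its droplets into a high and a low fraction. Libraries were paired as a sort by the round and replicate in their labels, which do not state that equal numbers mark the same run. The deviations of paired libraries from their group means correlated at -0.02 to 0.11 (12 sorts, Pearson, across guides).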

Additional observations from a re-analysis of the deposited data

Results flagged for a closer look

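In 15 cases 1 library stood far from the others of its group, out of 34 groups looked at. Chance alone gives about 1 in 20 for a single group. The groups share libraries, and several measures describe the same property of a library, so no excess over chance can be read from the 15. Repression high round 2 replicate 2 accounted for 7 of the cases: it had the fewest guides at equal depth (2067), the lowest effective number (1222), the highest share on its 10 leading guides (4.00%), the fewest guides holding 50% of reads (320), the largest leading share (0.563%), the strongest narrowing from low to high (a log2 ratio of -2.89) and the highest share of mitochondrial ribosomal guides (0.501%). Among the activation high libraries, round 2 replicate 2 had the most guides at equal depth (2363) and the highest share of signal recognition particle and Sec guides (0.785%), and round 2 replicate 1 the highest share of mitochondrial ribosomal guides (1.00%). Round 3 replicate 1 had the highest share of exocyst and exomer guides (1.20%), round 4 replicate 1 of glycolytic guides (0.179%), and round 4 replicate 2 the largest leading share (34.5%). Round 5 replicate 1 had the highest share of endoplasmic reticulum folding guides (0.593%) and of cytosolic ribosomal guides (4.82%).

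The change from low to high differed between the screens for 581 guides called higher under activation and 1 called lower, by the interaction term in edgeR. The sort as a block gave 193 and 0, TMM factors 189 and 1, the library size alone 0 and 0, and DESeq2 turned the balance with 65 higher and 176 lower.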

How the results depend on the processing

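The differences in guides at equal depth (-4357), effective number (-3.98), share of the 10 leading guides (20.8 points) and guides holding 50% of reads (-4.19, log2) kept their values with the replicates of a round averaged, but 4 rounds against 2 gave an exact permutation p of 0.133, the smallest possible. Leaving out 1 library they ranged from -5492 to -3875, -4.45 to -3.70, 16.8 to 23.4 and -4.67 to -3.83, and every exact p stayed under 0.05. The difference in GC content (-0.0237 to 0.573) turned to -0.0237 without activation high round 2 replicate 2 and to -0.00508 without round 3 replicate 1. The difference in narrowing was -1.82 to -0.88, past the threshold without activation round 2 replicate 2 only.

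Calls per guide moved more, and why was not tested. Guides called higher in the high fractions numbered 10 with the library size alone, 0 with edgeR's quasi-likelihood test, 145 with DESeq2, 0 with no filter, 21 with CPM above 1 in at least 4 libraries, 0 with replicates summed and 5 with a replicate block on the replicate number, which marks no shared source between the screens. Guides called lower numbered 8 with TMM, 888 with the library size alone, 130 with DESeq2 and 1 with the CPM filter. Leaving out 1 library gave 0 to 167 higher and 0 to 198 lower: 167 and 198 without activation round 3 replicate 2, 7 higher without activation round 5 replicate 1, 1 lower without activation round 4 replicate 1 or round 5 replicate 2, and 14, 6, 0 and 22 higher without each repression library in order, with 11 lower without the last.

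In the interaction, guides called higher numbered 189 with TMM, 0 with the library size alone, 322 with the quasi-likelihood test, 65 with DESeq2, 872 with no filter and 227 with replicates summed. The replicate block that pairs both fractions of a sort gave 193 higher and 0 lower. Guides called lower numbered 0 with the library size alone, the quasi-likelihood test and summed replicates, 176 with DESeq2 and 5 with no filter. Leaving out 1 sort gave 0 to 725 higher, with 0, 265, 355 and 0 without each repression sort in order, and 0 to 10 lower. The lower calls numbered 3 without activation round 3 replicate 1, round 4 replicate 1 or round 5 replicate 1, 10 without round 3 replicate 2, 4 without round 4 replicate 2, 2 without round 5 replicate 2 and 0 without repression round 1 replicate 1 or either sort of round 2. SUT386 stayed called in 8 of the 12.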
